A study of Mus musculus with 4 samples.

Results

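The genes described here are 9 that act in the ubiquitin-dependent loss of muscle protein, namely 6 ubiquitin ligases (Fbxo32, Trim63, Fbxo30, Fbxo31, Fbxo21 and Cblb) and 3 FoxO transcription factors (Foxo1, Foxo3 and Foxo4). They were chosen by gene name in the array files, and they account for 9 of 31896 gene names, 14 of 39429 probes and 23 of 43020 spots that are not controls. Of these genes, 4 had 1 probe and 5 had 2 probes. The brighter probe of a gene over the 4 arrays stands for it, and the second probe is given beside it.

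The study profiled mouse 3D engineered muscle, a tissue grown in culture, on 4 single-colour Agilent arrays of 1 slide. The groups were muscle taken 5 h after an acute EPS of 30 min, muscle taken at 5 h without it, muscle taken 0 min after that EPS, and muscle taken at 0 min without it, with 1 array in each. EPS, written in the labels as electrical plus stimulation, is read here as electrical pulse stimulation, which makes cultured muscle contract. The labels used here name neither the cells the tissue was built from nor the number of tissues in each RNA sample. With 1 array per group there was no spread within a group, so no difference below was tested, no p-value was computed, and a difference of at least 2-fold is given only as a rule of size. The EPS and time comparisons are made from the same 4 arrays and do not support one another.

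In muscle, a ubiquitin ligase picks the protein that is to be tagged with ubiquitin and sent to the proteasome. FoxO factors are held outside the nucleus when Akt, the kinase downstream of insulin and insulin-like growth factor, phosphorylates them. When that signal is weak, they enter the nucleus and switch on ligase genes, of which Fbxo32 (atrogin-1) and Trim63 (MuRF1) are the best known in wasting muscle.

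Each value below called a level is a log2 processed spot signal from which the 75th percentile of the same array was subtracted, so a level of 0 lies at the 75th percentile. That percentile was 1498, 1287, 1095 and 1368 signal units on the EPS 5 h, no EPS 5 h, EPS 0 min and no EPS 0 min arrays. No spot was saturated. The 14 skeletal muscle markers were well above background on all 4 arrays, with median levels between 5.18 and 5.45. In the protocol for labelling, the RNA is said to be from leukocytes. The leukocyte marker Ptprc (CD45) was not well above background on the 4 arrays, 4 or 5 of 8 leukocyte markers were, and the signal of the list, in units of the 75th percentile, summed to 6.41 to 8.37, against 738 to 978 for the muscle list. In tissue RNA, fewer cells of a type and less RNA per cell cannot be told apart.

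Of the 9 genes, 8 were well above background on all 4 arrays, and Foxo4 on 3 of them. The levels stood in 3 bands, with Trim63, Fbxo31, Foxo1 and Fbxo21 above the 75th percentile on each array, Fbxo32, Fbxo30 and Cblb within 1.28 log2 units of it, and Foxo3 and Foxo4 far below it. These bands describe probes, and levels of different probes do not give the order of the transcripts. The widest spans over the 4 arrays among the genes measured on all of them were 0.82 for Trim63, 0.66 for Fbxo32 and 0.63 for Fbxo30, and the narrowest was 0.11 for Foxo3, in log2 units. The error of a difference between single spots, taken from probes printed 10 times, had a median SD of 0.07 log2 units for levels of 0 and above in each of the 4 comparisons, and of 0.26 to 0.34 for levels under -4. That error is one of spots within an array, and says nothing of how tissues vary.

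**Figure D1:**
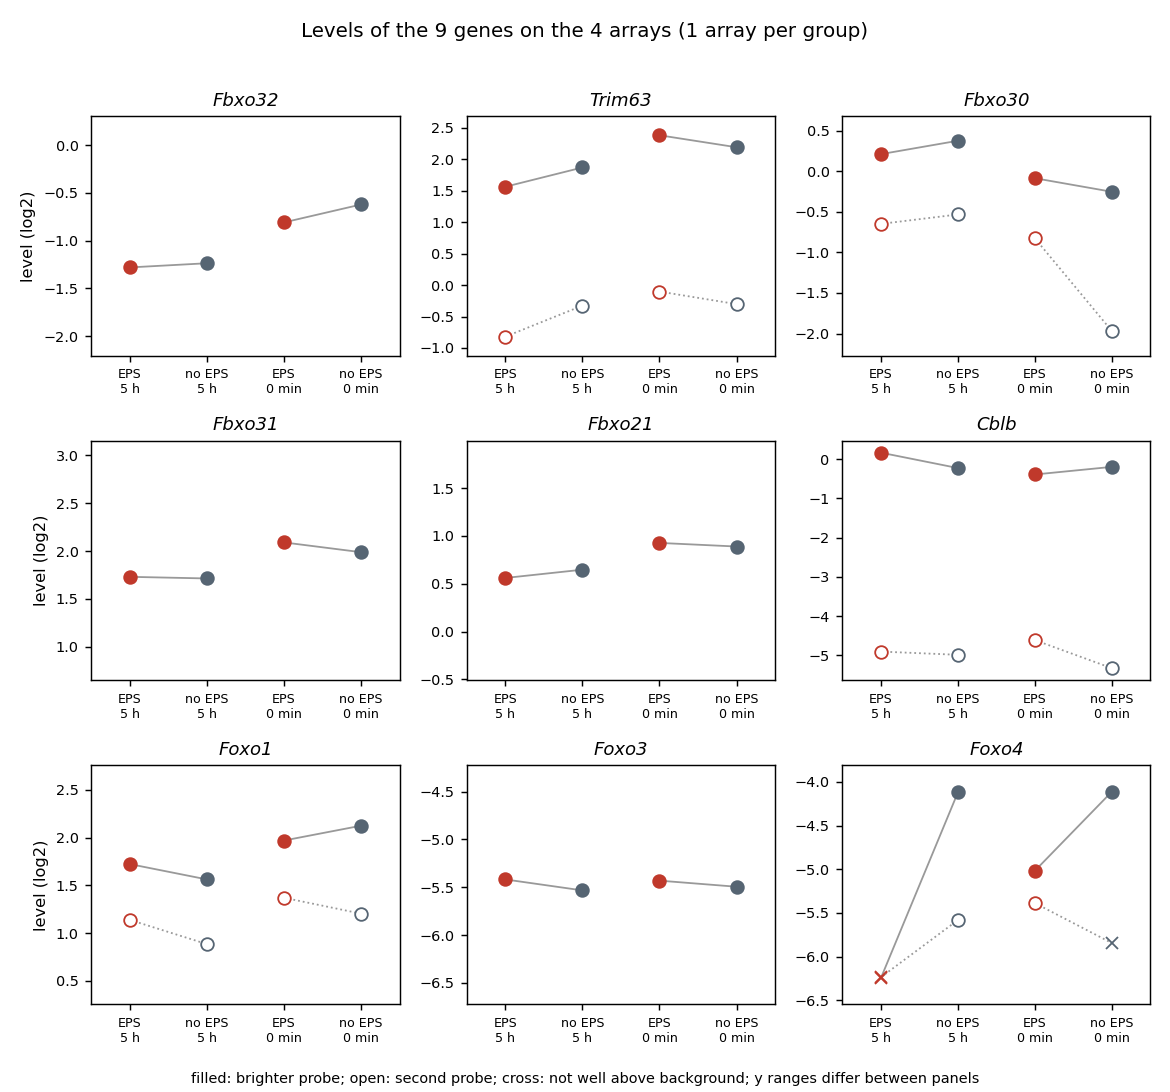
Level (log2 signal relative to the 75th percentile of its array) of the 9 genes on the EPS and no EPS arrays at 5 h and at 0 min, 1 point per array. Filled points are the brighter probe, open points the second probe and crosses probes not well above background. The second Fbxo30 probe is low at -1.97 on the no EPS 0 min array alone, and both Trim63 probes are lowest on the EPS 5 h array.

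Trim63 encodes MuRF1, a RING ligase of the sarcomere that tags thick filament proteins. Its level was 1.56 on the EPS 5 h array, against 1.87 on the no EPS 5 h array, and it was 2.38 on the EPS 0 min array, against 2.19 on the no EPS 0 min array. The gene was thus lowest 5 h after stimulation and highest directly after it. The second probe had levels of -0.82 (EPS, 5 h) against -0.33 (no EPS, 5 h), and of -0.10 (EPS, 0 min) against -0.30 (no EPS, 0 min). Both probes had the same array highest and the same array lowest. The EPS difference at 0 min was 0.19 by the brighter probe and 0.20 by the second, and at 5 h it was -0.31 and -0.49, in log2 units. For the brighter probe these are 1.14-fold higher with EPS at 0 min and 1.24-fold lower with EPS at 5 h. From 0 min to 5 h after EPS, Trim63 was 1.76-fold lower at 5 h by the brighter probe (log2 difference -0.82, second probe -0.72). Without EPS the same interval gave -0.32 by the brighter probe and -0.02 by the second, so the probes did not give the same size there. Trim63 ranked 1121 from the bottom of 18471 measured genes in the interval after EPS.

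The second Trim63 probe and the promoter are printed because Trim63 had the widest span of the genes measured on all arrays. The probe lies at chr4:133881557-133881616 on build mm9, plus strand, and the brighter probe at chr4:133885025-133885084. The promoter, from RefSeq on GRCm38.p6, is the 250 bases before the start of the gene, chr4:134314870-134315119, plus strand. Capitals mark a glucocorticoid receptor palindrome (GNACA and TGTNC with 3 bases between, from position -208 counted from the gene's start) and the core GTAAAC of the FoxO motif GTAAACA on the opposite strand, from position -193.
Trim63 second probe: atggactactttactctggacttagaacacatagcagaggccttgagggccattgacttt
Trim63 promoter: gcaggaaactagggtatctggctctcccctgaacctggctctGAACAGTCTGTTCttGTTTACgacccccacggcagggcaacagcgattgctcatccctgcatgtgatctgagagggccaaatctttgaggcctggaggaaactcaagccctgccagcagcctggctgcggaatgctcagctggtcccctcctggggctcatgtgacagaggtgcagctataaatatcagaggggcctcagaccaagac
Of 32851 RefSeq promoter windows of this length, 3.17% held GTAAACA and 0.387% held the palindrome, on either strand. The 2 motifs do not overlap in Trim63, and TATAAA begins at position -31, a motif found in 12.4% of windows. RefSeq promoters were matched for 7 of the 9 genes, all but Fbxo32 and Foxo4. Neither GTAAAC, held by 6.92% of windows, nor the palindrome was found in the windows of Fbxo30, Fbxo31, Fbxo21, Cblb, Foxo1 and Foxo3. A match is a description of letters and not of binding.

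Fbxo32 encodes atrogin-1, the muscle F-box protein whose reported substrates include MyoD and the initiation factor eIF3f. Its single probe, at chr15:58011752-58011811 on mm9, minus strand, was printed at 10 positions on each array, which gives the level a technical error. It averaged -1.28 ± 0.08 on the EPS 5 h array, against -1.24 ± 0.06 on the no EPS 5 h array (SD over 10 spots of 1 array each). At 0 min it averaged -0.81 ± 0.08 on the EPS array, against -0.62 ± 0.04 on the no EPS array. Both 5 h arrays were thus below both 0 min arrays, with no overlap of spots, since the 5 h spots reached at most -1.13 and the 0 min spots at least -0.93. With EPS at 0 min, Fbxo32 was 1.14-fold lower (log2 difference -0.19), and the difference was below 0 at 10 of 10 array positions, from -0.26 to -0.06. With EPS at 5 h the difference was -0.04, below 0 at 9 positions and above 0 at 1, but it was 0.04 with arrays centred on the median of all probes, so its direction depends on the scaling. Fbxo32 was 1.53-fold lower at 5 h than at 0 min without EPS (log2 difference -0.61, positions from -0.71 to -0.54) and 1.39-fold lower after EPS (log2 difference -0.47, positions from -0.60 to -0.41). The 10 spots of an array saw the same RNA.

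**Figure D2:**
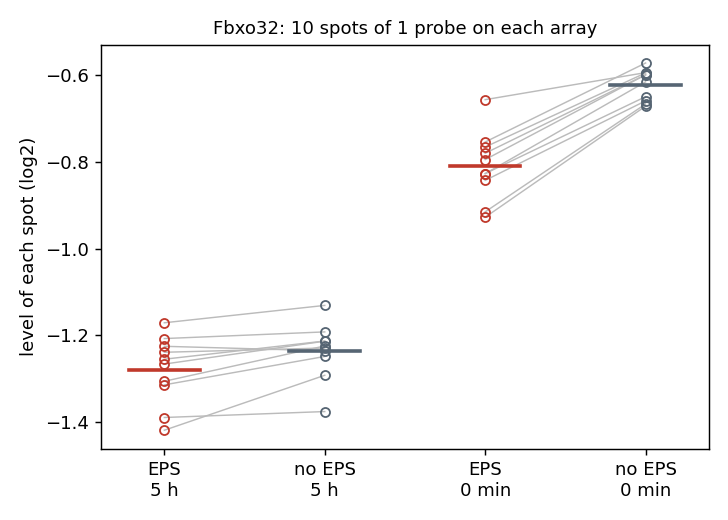
Level (log2) of each of the 10 Fbxo32 spots on the EPS and no EPS arrays at 5 h and at 0 min, with lines joining the same array position within a time point and bars at the mean. The means are -1.28 (EPS) and -1.24 (no EPS) at 5 h, and -0.81 (EPS) and -0.62 (no EPS) at 0 min.

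Fbxo30 encodes MUSA1, an F-box protein known from mouse muscle as a ligase restrained by bone morphogenetic protein signalling. Its brighter probe had levels of 0.21 (EPS, 5 h) against 0.37 (no EPS, 5 h), and of -0.09 (EPS, 0 min) against -0.25 (no EPS, 0 min). Unlike Trim63 and Fbxo32, it was higher on both 5 h arrays than on both 0 min arrays. The log2 difference between 5 h and 0 min was 0.63 without EPS (1.55-fold higher at 5 h) and 0.30 after EPS, and the EPS difference was 0.17 at 0 min and -0.17 at 5 h. The second probe had levels of -0.65 (EPS, 5 h), -0.53 (no EPS, 5 h), -0.83 (EPS, 0 min) and -1.97 (no EPS, 0 min). It gave 2.21-fold higher with EPS at 0 min and 2.71-fold higher at 5 h than at 0 min without EPS, and both values rest on the no EPS 0 min array, where the second probe was low and the brighter one was not to that extent. The probes are shown because they disagree in size. The brighter one, at chr10:11016601-11016660 on mm9, plus strand, holds a stretch of 19 bases at 2 places. The second one covers 60 transcript bases that lie 3704 genomic bases apart from end to end, chr10:11011329-11015032, and thus crosses an exon junction.
Fbxo30 repeated stretch of the brighter probe: gattcatatgtcccatata
Fbxo30 second probe: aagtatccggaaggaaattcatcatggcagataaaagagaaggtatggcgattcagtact

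Fbxo31, an F-box protein known to direct the breakdown of cyclin D1, had levels of 1.73 (EPS, 5 h) against 1.71 (no EPS, 5 h), and of 2.09 (EPS, 0 min) against 1.99 (no EPS, 0 min). Fbxo21, an F-box protein also called SMART, had levels of 0.56 (EPS, 5 h) against 0.65 (no EPS, 5 h), and of 0.93 (EPS, 0 min) against 0.89 (no EPS, 0 min). Both genes were higher on both 0 min arrays than on both 5 h arrays. Their EPS differences were no larger than 0.10 in size, close to the error of a single spot. Their log2 differences between 5 h and 0 min were -0.27 (Fbxo31) and -0.24 (Fbxo21) without EPS and -0.36 and -0.37 after EPS.

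Cblb encodes Cbl-b, a RING ligase known in unloaded muscle for tagging the insulin receptor substrate IRS1. Its brighter probe, at chr16:52207889-52207948 on mm9, had levels of 0.17 (EPS, 5 h) against -0.23 (no EPS, 5 h), and of -0.39 (EPS, 0 min) against -0.20 (no EPS, 0 min). The EPS 5 h array was thus the highest of the 4. The difference was 1.31-fold higher with EPS at 5 h (log2 0.39), which ranked 812 from the top of 18544 measured genes, and 1.14-fold lower with EPS at 0 min (log2 -0.19). The second probe, at chr16:52205507-52205566, was dim, at -4.90 (EPS, 5 h), -4.98 (no EPS, 5 h), -4.61 (EPS, 0 min) and -5.33 (no EPS, 0 min). It gave 0.72 at 0 min and 0.08 at 5 h for EPS, and -0.29 against 0.56 by the brighter probe for 5 h minus 0 min after EPS, so the direction of Cblb depends on the probe in the EPS comparison at 0 min and in both time comparisons.

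Foxo1 encodes the FoxO factor best known for driving ligase genes when insulin signalling is low. Its brighter probe had levels of 1.72 (EPS, 5 h) against 1.56 (no EPS, 5 h), and of 1.97 (EPS, 0 min) against 2.12 (no EPS, 0 min). The 5 h arrays were below the 0 min arrays, and the no EPS arrays were at both ends of the span. The second probe had levels of 1.14 (EPS, 5 h) against 0.89 (no EPS, 5 h), and of 1.37 (EPS, 0 min) against 1.20 (no EPS, 0 min). At 5 h both probes were higher with EPS, by 0.16 and 0.25 log2 units, whereas at 0 min they gave opposite signs, -0.15 and 0.17. Between 5 h and 0 min without EPS, Foxo1 was 1.48-fold lower at 5 h (log2 -0.56, second probe -0.32), and after EPS it was 1.19-fold lower (log2 -0.25, second probe -0.23). The brighter probe, at chr3:52150183-52150242 on mm9, plus strand, is printed because the sign at 0 min turns on which probe is read, the second lying at chr3:52153289-52153348.
Foxo1 brighter probe: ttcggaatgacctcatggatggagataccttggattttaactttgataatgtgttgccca

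Foxo3 encodes the FoxO factor that also drives autophagy genes in muscle. Its single probe had levels of -5.42 (EPS, 5 h) against -5.53 (no EPS, 5 h), and of -5.43 (EPS, 0 min) against -5.50 (no EPS, 0 min). All 4 values lay within 0.11 log2 units, less than the error of a single spot that dim. With normexp background correction, Foxo3 differed by -0.25 for 5 h minus 0 min after EPS, against 0.01. Its EPS difference at 5 h was then -0.07, against 0.11. Foxo4, the X-linked FoxO gene, had levels of -6.25 (EPS, 5 h, not well above background) against -4.12 (no EPS, 5 h), and of -5.02 (EPS, 0 min) against -4.11 (no EPS, 0 min). The no EPS array was thus the higher of each pair. At 0 min Foxo4 was 1.88-fold lower with EPS (log2 -0.91, but -0.30 with normexp background correction), 192 from the bottom of 18590 genes. At 5 h it was 4.37-fold lower with EPS, a size that rests on a spot not well above background. Against 0 min it was 2.35-fold lower at 5 h after EPS, with the same limit, and it differed by -0.01 without EPS. The 4.37-fold and 2.35-fold values use the dim spot's own level, are not lower bounds, and do not count as measured. The second Foxo4 probe shares 52 of its 60 bases with the first, at chrX:98454966-98455025 and chrX:98454974-98455033 on mm9, and had levels of -6.24 (EPS, 5 h, not well above background), -5.58 (no EPS, 5 h), -5.39 (EPS, 0 min) and -5.85 (no EPS, 0 min, not well above background). It was therefore higher with EPS at 0 min, opposite to the first, and lower with EPS at 5 h, like the first. Its sizes were smaller, 1.58-fold lower with EPS at 5 h and 1.80-fold lower at 5 h than at 0 min after EPS.

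Of the 9 genes, 0 reached 2-fold with EPS at 0 min by the probe that stands for the gene, where 1.34% of 18590 measured genes did. With EPS at 5 h, 0 of 8 measured genes reached it, where 1.21% of 18544 did, and the Foxo4 difference, not measured there, stands outside this count. Between 5 h and 0 min, 0 of 9 reached it without EPS, where 4.7% of 18486 did, and 0 of 8 after EPS, where 6.05% of 18471 did. At 1.5-fold, 1 of 9 genes passed with EPS at 0 min (Foxo4, against 5.33% of all genes), 0 of 8 with EPS at 5 h (4.99%), 2 of 9 in 5 h minus 0 min without EPS (Fbxo32 and Fbxo30, 16.0%) and 1 of 8 after EPS (Trim63, 20.4%). Shares near those of all genes are no result about these 9. The median EPS difference was 0.04 at 0 min and -0.01 at 5 h, with 4 of 9 and 4 of 8 below 0, against medians of 0.02 and -0.03 and shares below 0 of 45.1% and 56.4% over all measured genes. Both medians of the 9 genes took the other sign under some scalings (-0.01 at 0 min with normexp background correction, 0.07 at 5 h with arrays centred on the median of all probes). For 5 h minus 0 min the median was -0.24 without EPS, with 8 of 9 below 0 (6 of 9 under quantile normalization), and -0.30 after EPS, with 5 of 8 below 0. Over all genes the medians were -0.02 without EPS and -0.08 after EPS, with 52.7% and 57.7% below 0. With the centring on all probes these time medians were -0.11 and -0.12 with 5 of 9 and 5 of 8 below 0, beside 0.11 and 0.09 over all genes, and Foxo3, Foxo4 and Cblb, which lay within 0.04 of 0 without EPS, turned to the other sign. By the probe that stands for each gene, Trim63, Fbxo32, Fbxo31, Fbxo21 and Foxo1 were lower at 5 h in both intervals. Their differences were -0.24 or further below 0, and had that sign under each scaling tried. The second Trim63 probe gave only -0.02 without EPS.

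**Figure D3:**
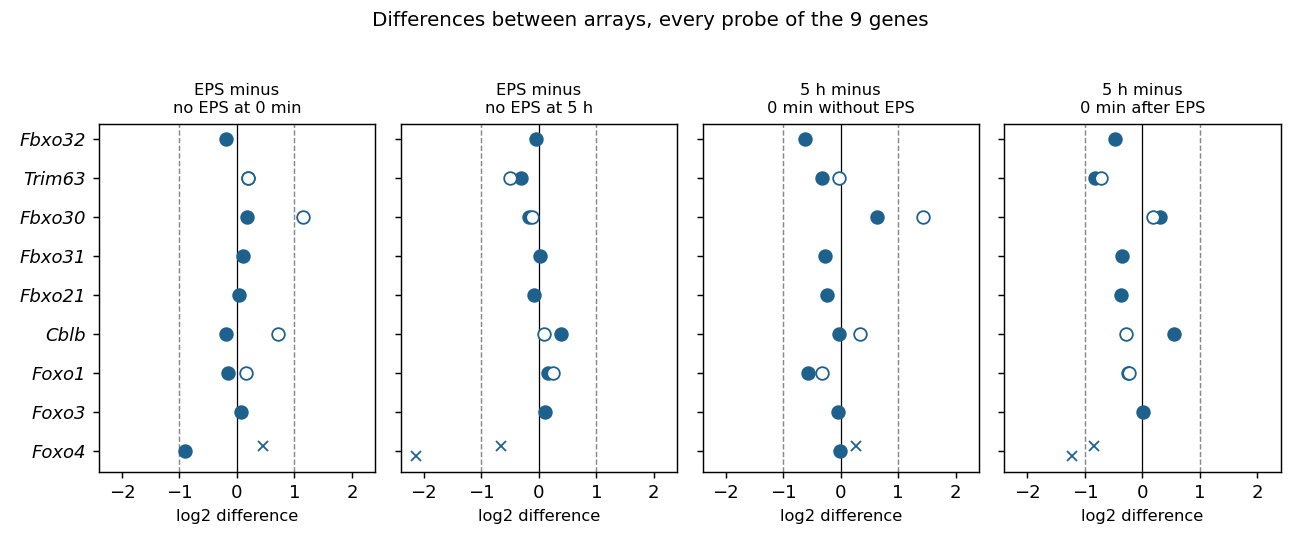
Log2 differences between arrays for every probe of the 9 genes, with EPS minus no EPS at 0 min and at 5 h and 5 h minus 0 min without and after EPS. Filled points are the brighter probe, open points the second, crosses probes not well above background on both arrays, and dashed lines 2-fold. The second Fbxo30 probe passes 2-fold at 1.14 (EPS, 0 min) and 1.44 (5 h minus 0 min without EPS).

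The effect of EPS at 5 h minus that at 0 min reached 2-fold for 0 of the 8 genes measured on all arrays by the brighter probe, where 1.99% of 18107 genes did, and 1.5-fold for 1 (Cblb), where 7.36% did. It was 0.59 for Cblb by the brighter probe, but -0.63 by the second and -0.02 by their mean, so its direction turned with the probe. For Fbxo30 it was -0.33 by the brighter probe and -1.26, past 2-fold, by the second. It was -0.50 for Trim63 and 0.32 for Foxo1.

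Other genes of the pathway give the setting, from 7 lists of ligases, ubiquitin enzymes, upstream signalling and targets. With EPS at 0 min, 0 of 22 other muscle ligases, 0 of 12 genes of the SCF core (the scaffold that F-box proteins dock on) and 0 of 18 genes for ubiquitin, its E1 and E2 enzymes and deubiquitinases reached 2-fold, with medians of 0.02, 0.01 and 0.06. Otud1, a deubiquitinase, came nearest, with levels of -1.31 (EPS) and -2.13 (no EPS) at 0 min, 1.76-fold higher with EPS. Of 34 FoxO targets, Trib1, a pseudokinase gene, reached 2-fold, with levels of 1.54 (EPS) and 0.41 (no EPS) at 0 min, and the list median was -0.05. At 5 h none of these lists had a gene at 2-fold with EPS, and their medians lay between -0.06 and 0.05.

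Upstream of FoxO, 0 of 23 genes of the insulin, Akt and SGK list reached 2-fold with EPS at either time, with medians of 0.01 at 0 min and -0.04 at 5 h. Irs1, the adaptor that Cbl-b tags, had levels of -0.14 (EPS) and -0.36 (no EPS) at 5 h and of 1.23 (EPS) and 0.95 (no EPS) at 0 min. Irs1 was therefore 2.48-fold lower at 5 h than at 0 min without EPS and 2.58-fold lower after EPS. Of the 15 measured genes of the glucocorticoid receptor list, which holds hormone-responsive genes, 12 were above 0 with EPS at 0 min (9 under quantile normalization), where 54.9% of all measured genes were. The list median was 0.17. With EPS at 5 h, 6 of the 15 were above 0 (8 under quantile normalization), where 43.6% of all measured genes were, and the median was -0.02. Dusp1, a MAP kinase phosphatase, was 2.24-fold higher with EPS at 0 min. Dusp1 had levels of -0.00 (EPS) and -0.08 (no EPS) at 5 h and of 1.47 (EPS) and 0.30 (no EPS) at 0 min. Cebpd, a transcription factor gene, had levels of 3.92 (EPS) and 4.92 (no EPS) at 5 h and of 2.89 (EPS) and 2.11 (no EPS) at 0 min, and so was 2-fold lower with EPS at 5 h. Cebpd lay on that threshold and was under it with the centring on all probes (-0.91), normexp (-0.98) and quantile normalization (-0.99).

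More list genes reached 2-fold between the times than with EPS, as did more genes over the whole array. Without EPS, the largest 5 h minus 0 min difference in the 7 lists was log2 2.81 (7.02-fold), for Cebpd of the glucocorticoid receptor list. After EPS the Cebpd value was 1.03 (2.04-fold). Dusp1, Errfi1 and Glul of that list had -1.47, -1.19 and -1.01 after EPS (2.77-fold, 2.28-fold and 2.02-fold) and were short of 2-fold without EPS. Glul lay close to 2-fold after EPS and was short of it with the centring on all probes. The medians of that list were -0.06 without EPS and -0.10 after EPS. Asb2, a muscle ligase subunit, was 2.90-fold lower at 5 h than at 0 min without EPS and 2.74-fold lower after EPS, with levels of -0.73 (EPS) and -0.77 (no EPS) at 5 h and of 0.72 (EPS) and 0.76 (no EPS) at 0 min. Skp2, an F-box gene of cell division, was 1.99-fold higher at 5 h without EPS and 2.06-fold higher after EPS (log2 0.77 with normexp). Usp2 and Otud1, both deubiquitinases, were 2.03-fold and 2.83-fold lower at 5 h after EPS, and Usp2 lost 2-fold with the centring on all probes (-0.84) and with normexp (-0.96). Of the FoxO targets, Klf2, a transcription factor gene, was 2.09-fold lower at 5 h without EPS (log2 -0.93 with the centring on all probes) and 2.60-fold lower after EPS, with levels of -0.01 (EPS) and -0.03 (no EPS) at 5 h and of 1.36 (EPS) and 1.04 (no EPS) at 0 min. Bcl2l11, a pro-death gene, had a log2 difference of 1.05 without EPS (0.69 with normexp) and 0.88 after EPS. Sesn1, a stress-response gene, had levels of 0.45 (no EPS, 5 h) and 1.46 (no EPS, 0 min), 2-fold lower at 5 h, but -0.87 on the log2 scale with the centring on all probes. The median over the FoxO targets was 0.02 without EPS and -0.02 after EPS.

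The reported substrates of atrogin-1, MuRF1 and Cbl-b are largely sarcomere genes. Of 21 measured, 18 were below 0 for 5 h minus 0 min without EPS and 19 after EPS, where 52.7% and 57.7% of all measured genes were, with list medians of -0.25 and -0.41. With the centring on all probes, 14 and 15 were below 0, with medians of -0.12 and -0.23. Of the 21, 0 reached 2-fold with EPS at either time. Irs1 was the member of that list past 2-fold across time, and Myh4, a myosin heavy chain, had -0.72 without EPS and -0.75 after EPS. The 14 skeletal muscle markers had medians of -0.11 without EPS (0.02 with the centring on all probes) and -0.29 after EPS. Their summed signals, in units of the 75th percentile, were 738 (EPS) and 798 (no EPS) at 5 h and 978 (EPS) and 846 (no EPS) at 0 min. Fibroblast markers, 5 of 6 of them well above background on each array and Thy1 on none, summed to 222 (EPS) and 257 (no EPS) at 5 h and to 300.3 (EPS) and 264 (no EPS) at 0 min. The part of both marker lists in the lower 5 h levels of Trim63, Fbxo32, Fbxo31, Fbxo21 and Foxo1 was not tested.

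**Figure D4:**
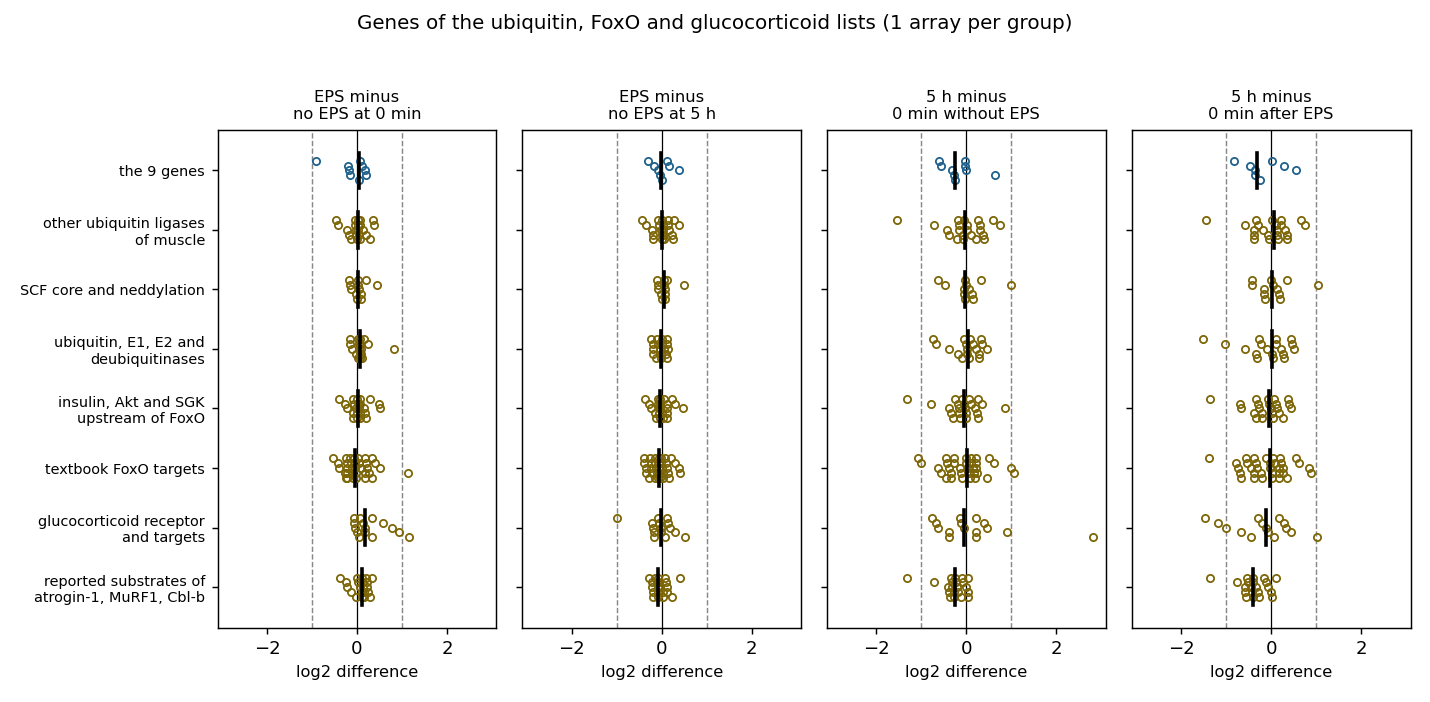
Log2 differences of the measured genes of the 9-gene set and of the 7 lists in each comparison, with EPS minus no EPS at 0 min and at 5 h and 5 h minus 0 min without and after EPS. Circles are genes, thick bars list medians and dashed lines 2-fold. In the EPS panels 1 gene per list at most passes 2-fold, Trib1 and Dusp1 at 0 min and Cebpd, on the line, at 5 h.

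A search over 13022 genes, each bright enough on the 4 arrays, set their 4 levels, centred on the gene mean, against those of Foxo4. The nearest were Stra6, Zfp395 and Syt10, at Euclidean distances of 0.68, 0.69 and 0.77 log2 units. Foxo4 was the sole gene of the 9 with a span above 1 log2 unit (2.14, its lowest value not well above background), as the rule for this search asked. For Trim63 and Fbxo32 the search was added after their values were seen. It gave Tmem42, Jund and Adgrg1 for Trim63 (0.04, 0.05 and 0.05) and Abcc10, Tram2 and Duoxa1 for Fbxo32 (each 0.03). With 4 values per gene and so many candidates, near neighbours occur for most shapes, and the distances describe these arrays.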

How the data were processed

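Total RNA of engineered muscle was labelled with Cy3 and hybridised to 1-colour arrays, 1 array for each of the 4 groups. The authors deposited an intensity for each spot, which Agilent Feature Extraction 10.7.3.1 had background-subtracted, per the file headers. Their value table repeats these intensities, linear and uncentred, since 44397 of 44397 values equalled the processed signal within 0.1%, with array medians of 69.4 (EPS, 5 h), 64.0 (no EPS, 5 h), 57.6 (EPS, 0 min) and 75.2 (no EPS, 0 min). Outlier spots (112 to 141 an array) were left out. Levels are log2 processed signals minus each array's 75th percentile, with spots of a probe averaged.

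A gene was measured in a comparison where its brightest probe was well above background on both arrays. Names came from RefSeq by accession (GRCm38.p6) for 26055 probes, and 13374 kept the array's name. Positions of probes are on mm9, per the file headers. Ube2d2 was not found under that name.

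The 9 genes and the lists were chosen with earlier results of these data known. The rule for naming genes took the 9, the list members with the largest differences or at 2-fold, and for genes spanning at least 1 log2 unit the 3 nearest patterns. Not every list member that this rule chose is described. Alternatives were normexp with an offset of 50 (limma 3.58.1 in R 4.3.3), quantile normalization, 2 median centrings, 3 filters, the mean of probes, the value table, a 1.5-fold rule and, added after seeing the data, the dimmer probe. Other steps ran in Python 3.11.15 with numpy 2.4.6, pandas 2.3.3 and matplotlib 3.10.9, and were tested on simulated data. The number of arrays limits the precision.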

Additional observations from a re-analysis of the deposited data

Results flagged for a closer look

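For 5 of the 8 genes measured on all arrays, the array with EPS lay on one side of its no EPS array at 0 min and on the other side at 5 h, as it did for 41.3% of 18107 genes. In log2 units, the effect at 5 h minus the effect at 0 min was -0.50 for Trim63, -0.33 for Fbxo30, -0.12 for Fbxo21, 0.59 for Cblb and 0.32 for Foxo1. With 1 array per group, these differences were not tested. Both Trim63 probes and both Fbxo30 probes gave a difference below 0, whereas the second Cblb probe gave -0.63, opposite to the brighter one. The second Foxo1 probe was higher with EPS at both times. The Fbxo21 effects changed sign with the scaling, to -0.01 at 0 min with normexp and to 0.0016 at 5 h with arrays centred on the median of all probes. The Fbxo21 value is about the size of the error of a difference of effects between single spots, whose median SD was 0.12.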

How the results depend on the processing

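No paired analysis was possible because each group has 1 array. For all measured genes, the count at 2-fold with EPS at 0 min was 250, against 2248 with no filter on dim probes, 1024 with 1 bright array required and 71 with normexp. With EPS at 5 h it was 225, against 2530, 1027 and 74 under the same settings. Between 5 h and 0 min it was 869 without EPS, against 3112, 1771 and 414, and 1118 after EPS, against 3942, 2177 and 598. The share of calls that were higher was 41.6% with EPS at 0 min, against 59.2% with normexp. Centring on the median of all probes gave 68.8% with EPS at 5 h, against 56.9%, 54.4% for 5 h minus 0 min without EPS, against 36.9%, and 63.2% after EPS, against 39.3%, where quantile normalization gave 50.3%. That centring moved the median of all genes by 0.13 without EPS and 0.18 after EPS, and no filter moved it by -0.15 without EPS. Of the 9 genes, 0 passed 2-fold as reported. The dimmer probe put 1 (Fbxo30) past it with EPS at 0 min, in 5 h minus 0 min without EPS and in the difference of EPS effects, and the mean of probes put 1 (Fbxo30, 1.03) past it in 5 h minus 0 min without EPS. No filter, or 1 bright array, put 1 (Foxo4) past it with EPS at 5 h, in 5 h minus 0 min after EPS and in the difference of effects. At 1.5-fold, 1 gene passed with EPS at 0 min (Foxo4), 2 in 5 h minus 0 min without EPS (Fbxo32 and Fbxo30), 1 after EPS (Trim63) and 1 in the difference of effects (Cblb), where 7.36% of all genes did. Foxo4 with EPS at 0 min was -0.30 with normexp and -0.22 by the mean of probes, against -0.91. Cblb for 5 h minus 0 min after EPS was -0.29 by the dimmer probe, against 0.56, and its difference of EPS effects was -0.63 by that probe and -0.02 by the mean, against 0.59. Of 416 values of the 9 genes under alternatives, 400 lay within the spot error of those reported. That error was the 95th percentile SD over probes of all levels, 0.29 to 0.42. For levels of 0 and above it was 0.10 to 0.15, so the yardstick was wide for bright genes. The value table repeats the same signal and the filters reuse the same levels, so their agreement was fixed in advance. Of the 416 values, 23 changed sign, 3 of them where the reported value was at least 0.3 in size. Of 19 list-gene differences at 2-fold, 14 stayed there with normexp, 14 with centring on the median of all probes and 18 with quantile normalization, and 0 changed sign. The cause of these shifts was not tested. Signal over background limits Foxo3, Foxo4 and the second Cblb probe.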
